A study of Mus musculus with 42 samples.

Results

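The insulin-like growth factor (IGF) family was followed through 10 genes, the ligands *Igf1* and *Igf2*, the receptor *Igf1r* and the binding proteins *Igfbp1* to *Igfbp7*, out of 26653 genes measured in each tissue of *Tug1* knockout and wild-type mice. They were chosen by name, with earlier results on the same wild-type and knockout values known, so every difference between the genotypes given for them is a description and carries no test. Sequenced RNA came from mouse embryonic fibroblasts (MEFs) and from liver, heart, eyes, spleen, prostate and testes, in 42 samples of which 22 were wild-type and 20 knockout. The wild-type group of testes held 4 samples and its knockout group 3, those of prostate held 3 and 2, and all the others 3 each. All samples were male and came from the Tug1_tm1.1Vlcg strain on a C57BL/6J background, which the labels give as N3-C57BL/6J without Neo. Wild-type samples carried 2 intact *Tug1* alleles. In the knockout (*Tug1*-/-), a *lacZ* reporter stood in place of the long noncoding RNA gene *Tug1* on both alleles, with its promoter and first exon left in place. The ages of the mice were not given in the labels. The MEFs were primary cultures from littermate embryos, taken at passage 2.

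IGF1 and IGF2 are small secreted hormones related to insulin that promote growth and survival through the receptor tyrosine kinase IGF1R. Liver is the main source of circulating IGF1, made there under growth hormone, whereas IGF2 is a fetal growth factor encoded by an imprinted gene that is expressed from the paternal allele and is silenced in most mouse tissues after birth. The binding proteins IGFBP1 to IGFBP6 hold the ligands with high affinity, and so both prolong their life in the circulation and keep them from the receptor, while IGFBP7 binds them weakly.

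The values available here are 1 pooled value per gene, genotype and tissue, in FPKM, a count of sequenced fragments scaled by transcript length and by the number of mapped fragments, so that levels of different genes can be set side by side. No spread between mice can be had from them, so no difference below has an error, an interval or a test, and the depth of the libraries is unknown. The difference between genotypes is the log2 of the knockout value over the wild-type value after adding 0.1 FPKM to each, which understates the difference of genes with low values. A gene was counted as past 1.5 times (0.58 on the log2 scale) only where the mean of its 2 values was at least 1 FPKM, and is described as higher or lower in the knockout without a statement on error. *Tug1* itself was lower in the knockout in every tissue, with log2 differences from -5.66 in heart to -7.60 in spleen. An exact 0 in these values can be a failed estimate, since *Alb*, the albumin gene of hepatocytes, has a listed value of 0 in both liver groups. The labels of the tissues were checked against marker genes, whose summed levels reached 32172 FPKM for hepatocyte genes in wild-type liver, 31242 for germ cell genes in testes, 33746 for prostate and seminal vesicle genes in prostate, 20221 for cardiomyocyte genes in heart, 11459 for photoreceptor and lens genes in eyes, 1443 for B and T cell genes in spleen and 3608 for fibroblast genes in MEFs.

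The genes lie on 6 mouse chromosomes, and 4 of the binding protein genes form a pair of neighbouring couples that face each other tail to tail. On chromosome 11 of mm10, *Igfbp1* (ENSMUSG00000020429.7, plus strand, 7197782 to 7202546) and *Igfbp3* (ENSMUSG00000020427.5, minus strand, 7206086 to 7213923) are 3539 bp apart, 3.55 and 3.56 Mb from the start of *Tug1* on the same chromosome. On chromosome 1, *Igfbp2* (ENSMUSG00000039323.12, plus strand, 72824503 to 72852474) and *Igfbp5* (ENSMUSG00000026185.8, minus strand, 72857932 to 72874884) are 5457 bp apart. The 250 bases before the RefSeq start of these 4 genes (GRCm38.p6) are shown because each couple holds genes with different wild-type levels across tissues. They are printed 5′ to 3′ on the strand of the gene, at chr11:7197537-7197786 (+) for *Igfbp1*, chr11:7213924-7214173 (-) for *Igfbp3*, chr1:72824230-72824479 (+) for *Igfbp2* and chr1:72874866-72875115 (-) for *Igfbp5*. Capitals mark a match to any of 4 motifs, each searched on both strands. The letters CAAAACA are the core of the insulin response element, through which insulin represses genes of liver. A half-site of the liver transcription factor HNF1 reads GTTAAT in its commonest form. The GC box, which is common in promoters without a fixed start, was searched as GGGCGG. The TATA box, which lies close before the start in some promoters, was searched as TATAAA.
Igfbp1: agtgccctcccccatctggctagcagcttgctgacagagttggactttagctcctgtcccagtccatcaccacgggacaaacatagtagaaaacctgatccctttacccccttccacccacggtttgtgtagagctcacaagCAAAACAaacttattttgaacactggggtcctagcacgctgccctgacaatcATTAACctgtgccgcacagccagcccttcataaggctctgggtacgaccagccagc
Igfbp3: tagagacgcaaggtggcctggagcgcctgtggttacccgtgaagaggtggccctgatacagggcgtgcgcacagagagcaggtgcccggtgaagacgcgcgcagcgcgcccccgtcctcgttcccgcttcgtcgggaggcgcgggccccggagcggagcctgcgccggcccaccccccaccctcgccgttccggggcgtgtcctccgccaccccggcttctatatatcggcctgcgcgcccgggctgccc
Igfbp2: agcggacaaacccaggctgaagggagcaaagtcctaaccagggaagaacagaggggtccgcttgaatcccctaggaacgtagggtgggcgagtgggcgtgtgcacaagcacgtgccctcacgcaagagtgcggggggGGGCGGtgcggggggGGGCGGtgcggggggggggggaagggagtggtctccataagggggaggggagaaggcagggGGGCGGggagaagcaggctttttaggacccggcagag
Igfbp5: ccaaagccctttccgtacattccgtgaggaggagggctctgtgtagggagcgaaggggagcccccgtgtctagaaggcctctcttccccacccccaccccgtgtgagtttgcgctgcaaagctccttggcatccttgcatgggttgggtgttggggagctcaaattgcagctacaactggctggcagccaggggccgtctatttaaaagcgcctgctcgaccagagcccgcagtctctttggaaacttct

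The *Igfbp1* window held CAAAACA from 108 to 102 bases before the start and ATTAAC, the other strand of GTTAAT, from 56 to 51 bases before it. Among 32851 RefSeq windows of the same length, 5.56% held CAAAACA and 6.43% held GTTAAT on either strand. The *Igfbp2* window held 3 GC boxes, a motif present in 32.7% of all windows. No match to any of the 4 motifs, TATAAA included (12.4% of windows), lay in the windows of its neighbour *Igfbp5* or of *Igfbp3*, nor in those of *Igf1* and *Igf2*. Only exact letters were searched, so stretches such as tatatat in the *Igfbp3* window and tatttaaaa in the *Igfbp5* window were not counted. The lack of a match therefore does not show the lack of a TATA box. RefSeq lists 2 windows for *Igfbp2* and 4 for *Igf2*, of which only the 1 nearest to the start in the deposited values was searched for each gene, and the *Igf1* window lies 34734 bp from that start. The *Igfbp3* window was the richest in G and C of the 4, at 73.2%, against 53.2% in *Igfbp1*, 67.2% in *Igfbp2* and 58.8% in *Igfbp5*. These matches describe the letters of the windows and say nothing of binding.

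Wild-type levels of the ligands differed widely between tissues. *Igf1* (chromosome 10) stood at 724 FPKM in liver, 38.2 in spleen and 11.4 in MEFs, and between 3.94 in testes and 8.19 in heart in the other 4 tissues, a span of 184 times from lowest to highest. *Igf2* (chromosome 7) was lowest in liver, where *Igf1* was highest, with 618 FPKM in MEFs, 23.3 in heart, 14.2 in eyes, 4.47 in testes, 3.54 in spleen, 1.47 in prostate and 0.498 in liver. *Igf1* therefore made up 99.9% of the summed ligand mRNA in wild-type liver and 1.81% in wild-type MEFs. The receptor *Igf1r* (chromosome 7) was at 26.3 FPKM in MEFs and 12.1 in eyes, between 2.13 in spleen and 4.02 in prostate in 4 other tissues, and at 0.405 in liver, where *Igf1* was highest. Because the values are pooled, whether neighbours in these orders differ beyond their spread cannot be told. The sum of all wild-type values also differed between tissues, from 378010 FPKM in eyes to 1124500 in liver. After rescaling to a sum of 1000000, *Igf1* stood at 644 in liver and 5.41 in testes, a narrower span.

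The binding proteins divided the tissues between them. *Igfbp1*, the acute binding protein of liver, whose gene is known to be induced by fasting and glucocorticoids and repressed by insulin, was at 28.8 FPKM in wild-type liver and at most 0.136 in the other tissues, and was listed at 0 in both genotypes in prostate, heart and MEFs. *Igfbp2* was highest in liver (543 FPKM), eyes (105) and MEFs (82.0) and under 1 FPKM in heart (0.469). *Igfbp3*, the main carrier of circulating IGF1, which forms a complex with the acid-labile subunit, was highest in spleen (56.6 FPKM) and lowest in testes (1.29). *Igfbp4* reached 1138.5 FPKM in liver, the highest wild-type value of any of the 10 genes, and was lowest in testes (6.89). *Igfbp5*, a binding protein that attaches to extracellular matrix, led in MEFs (174 FPKM) and eyes (123) and was under 1 FPKM in testes (0.858). *Igfbp6* (chromosome 15), which prefers IGF2 as its ligand, spanned 2.33 FPKM in liver to 42.1 in heart. *Igfbp7* (chromosome 5) varied least, by 13.1 times, from 33.3 FPKM in testes to 436 in MEFs. After rescaling to a sum of 1000000, it stood at 45.7 in testes and 866 in MEFs, a wider span.

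**Figure D1:**
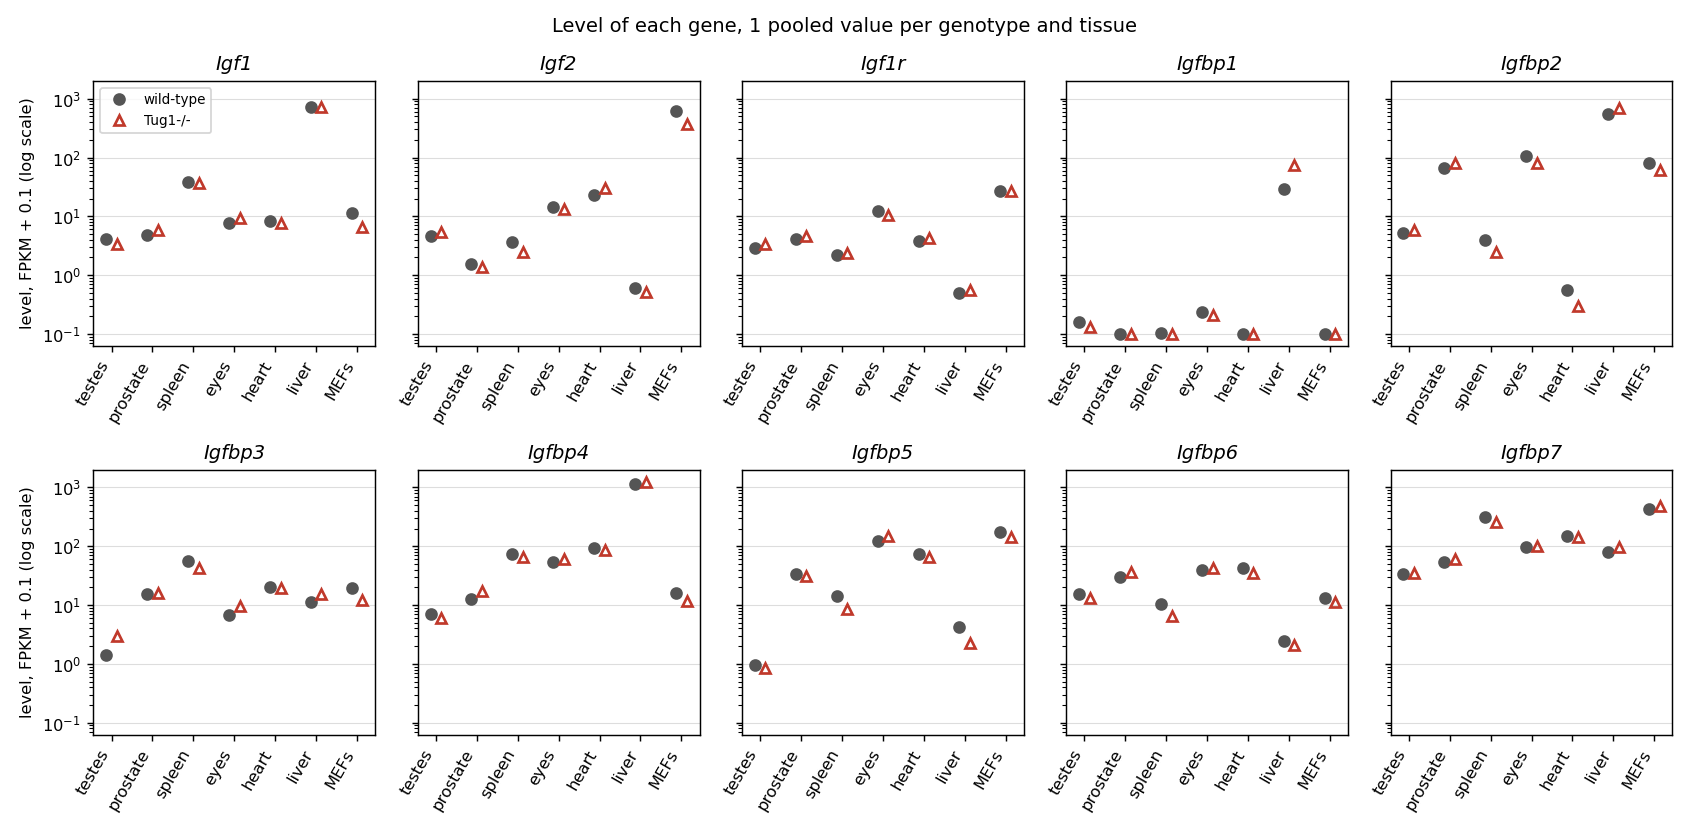
Level of each of the 10 genes (vertical axis, FPKM + 0.1, log scale) in 7 tissues (horizontal axis) in wild-type (filled circles) and *Tug1*-/- samples (open triangles). Each point is 1 pooled value without an error; points at 0.1 stand for a listed 0, as for *Igfbp1* in heart, and the genotypes lie close together beside the span between tissues.

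By summed FPKM, *Igfbp7* led the binding protein mRNA in 4 wild-type tissues, with 53.2% in testes, 66.2% in spleen, 39.2% in heart and 58.9% in MEFs. *Igfbp4* led in liver with 63.0%, *Igfbp5* in eyes with 28.7% and *Igfbp2* in prostate with 31.1%. The same gene led in the knockout in each tissue. The mRNA of all 7 binding proteins exceeded that of both ligands 33.8 times in wild-type prostate and 19.6 times in eyes, but only 2.49 times in liver and 1.18 times in MEFs. In the knockout, this ratio was above the wild type in MEFs (1.88) and liver (2.99) and below it in heart (12.0 in the wild type and 9.17 in the knockout) and spleen (11.3 and 9.82). It was nearly the same in testes (7.44 and 7.42), prostate (33.8 in both) and eyes (19.6 in both).

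**Figure D2:**
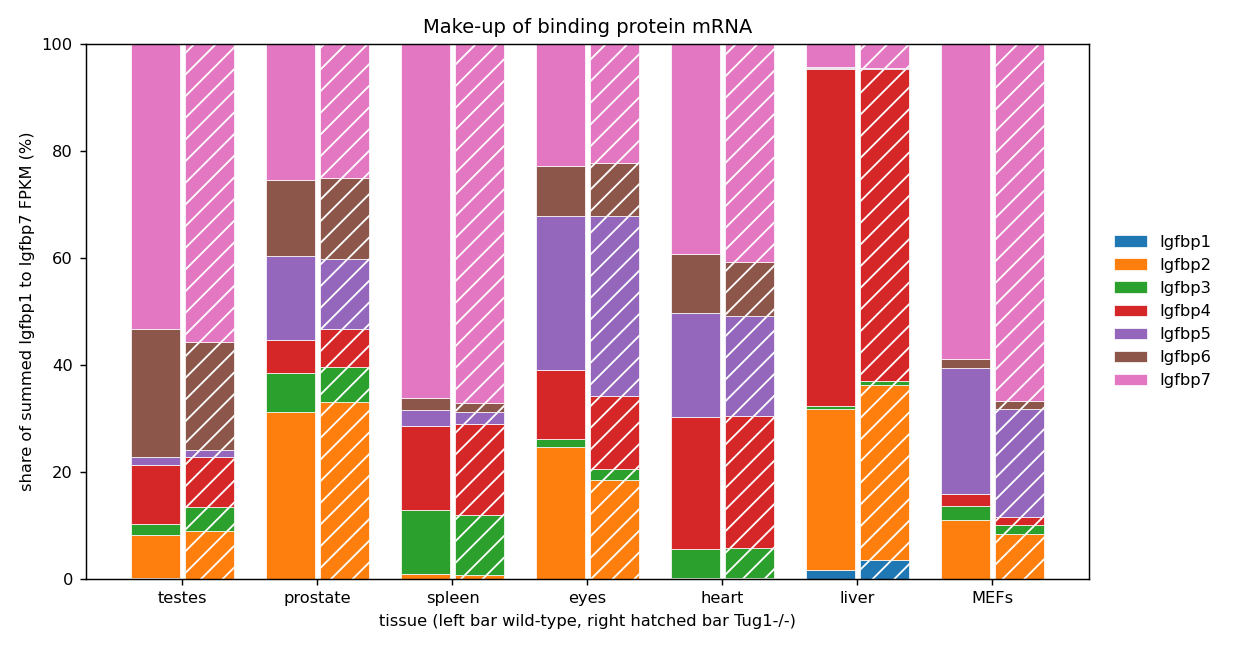
Share of each binding protein in the summed FPKM of *Igfbp1* to *Igfbp7* (vertical axis, percent) by tissue; the left bar of each couple is wild-type and the right, hatched bar *Tug1*-/-. *Igfbp4* with *Igfbp2* fills most of the liver bars, *Igfbp7* most of those of testes, spleen and MEFs, and the make-up differs more between tissues than between genotypes.

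Of the 70 combinations of a gene and a tissue, 60 had a mean of at least 1 FPKM. The 10 below that level were *Igfbp1* outside liver in 6 tissues, *Igf2* and *Igf1r* in liver, *Igfbp2* in heart and *Igfbp5* in testes. Among the 60, 2 lay past 1.5 times higher in the knockout, *Igfbp1* in liver and *Igfbp3* in testes, and 7 lay past it lower: *Igf1*, *Igf2* and *Igfbp3* in MEFs, *Igfbp2*, *Igfbp5* and *Igfbp6* in spleen, and *Igfbp5* in liver. *Igf2* in spleen lay just inside the limit (-0.57), and *Igfbp6* in spleen was the member nearest to it outside (-0.66). *Igf1r*, *Igfbp4* and *Igfbp7* stayed within 1.5 times in every tissue in which they reached 1 FPKM.

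These counts stand beside the share of all genes at the same level that lay past the same limit, and since the same values chose the members nothing is read from the comparison. In MEFs 3 of 9 members were lower, beside 2.2% of 11587 genes, and 0 were higher, beside 0.975%. In spleen 3 of 9 were lower, beside 1.1% of 12618 genes, and 0 higher, beside 4.91%. In liver 1 of 8 was higher and 1 lower, beside 2.55% and 2.25% of 11711 genes. In testes 1 of 8 was higher, beside 1.17% of 15143 genes, and 0 lower, beside 0.753%. No member lay past the limit in prostate (2.4% of 12166 genes higher and 0.682% lower), eyes (2.64% of 14298 higher and 0.867% lower) or heart (0.874% of 12695 higher and 1.44% lower). With each genotype rescaled so that its values sum to 1000000, the share of higher genes among all genes past the limit went from 53.1% to 80.2% in liver, from 60.8% to 78.7% in testes, from 37.8% to 23.3% in heart and from 30.7% to 43.1% in MEFs, while centring on the median gene took it to 72.5% in testes. The median difference of the members was -0.43 in MEFs, -0.39 in spleen, -0.09 in heart, 0.11 in eyes, 0.12 in testes, 0.19 in prostate and 0.20 in liver, beside medians over all genes between -0.06 in testes and 0.03 in heart.

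**Figure D3:**
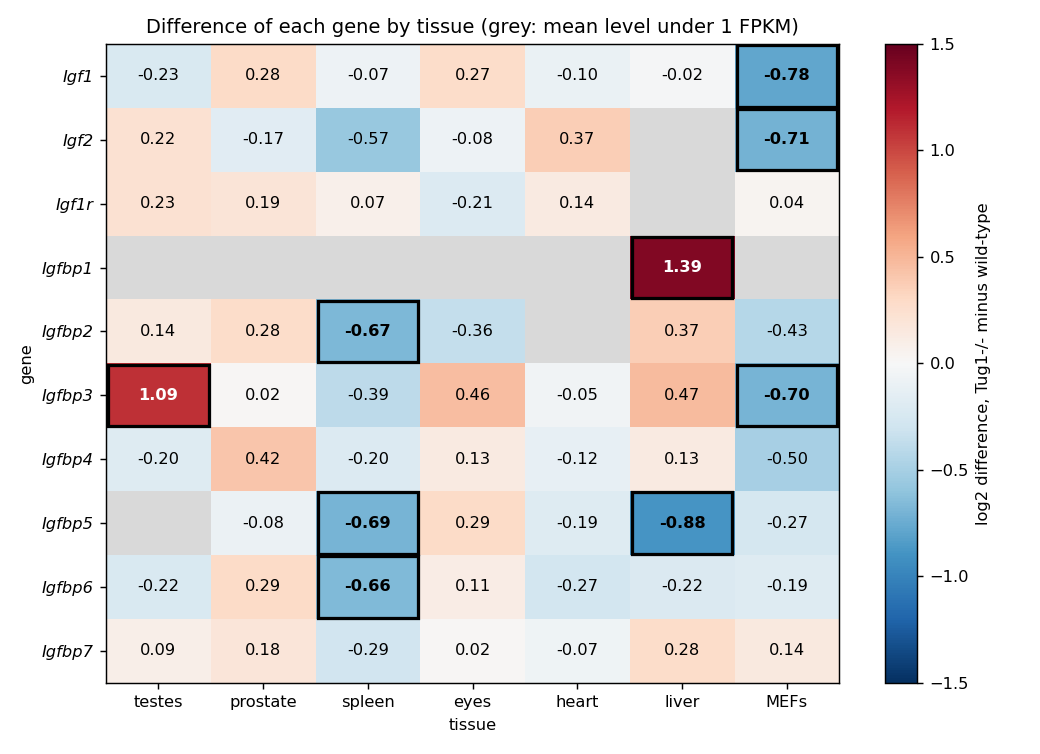
Log2 difference of knockout minus wild-type for each gene (rows) in each tissue (columns), from pooled FPKM + 0.1; red is higher and blue lower in the knockout. Black frames mark the 9 values past 1.5 times, which gather in the MEF and spleen columns apart from *Igfbp3* in testes and *Igfbp1* and *Igfbp5* in liver; grey cells had a mean under 1 FPKM.

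In MEFs both ligands were lower in the knockout while their receptor was level. *Igf2* was at 618 FPKM in the wild type and 379 in the knockout, a log2 difference of -0.71, and *Igf1* was at 11.4 and 6.58 FPKM (-0.78). The sum of both ligands was 630 FPKM in wild-type and 385 in knockout MEFs. *Igf1r* differed by 0.04 (26.3 and 27.1 FPKM) and *Igf2r*, the scavenger receptor that clears IGF2, by -0.11 (100 and 93.0 FPKM). Among the binding proteins, *Igfbp3* was lower by 0.70 on the log2 scale (19.3 and 11.9 FPKM), and *Igfbp4* (-0.50), *Igfbp2* (-0.43), *Igfbp5* (-0.27) and *Igfbp6* (-0.19) were below their wild-type values within 1.5 times. *Igfbp7*, the most abundant binding protein of these cells, was at 436 and 483 FPKM (0.14). *Pappa*, the protease that cleaves IGFBP4 and so frees ligand, was at 25.1 and 18.5 FPKM (-0.44). In bulk RNA such as this, fewer cells of a type and less RNA per cell cannot be told apart.

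*H19*, the noncoding RNA that lies 72622 bp from *Igf2* and shares its enhancers and imprinting control region but is expressed from the maternal allele, was also lower in knockout MEFs, with 618 FPKM in the wild type and 309 in the knockout (-1.0). *H19* and *Igf2* thus stood at nearly the same level in wild-type MEFs, and both were lower in the knockout. A list of imprinted genes of growth control was chosen with earlier results of these data known. Of its 10 genes other than *Igf2*, *H19* included, 10 were at 1 FPKM or more in MEFs. Of these, 4 lay past 1.5 times lower and 0 higher, beside 2.2% and 0.975% of all genes. The other 3 were *Peg3* (79.7 and 45.3 FPKM, -0.81), *Mest* (29.8 and 17.0 FPKM, -0.80) and the cell cycle inhibitor *Cdkn1c* (14.5 and 9.31 FPKM, -0.64). *Dlk1* (0.27), *Meg3* (0.11) and *Ndn* (0.09) were above their wild-type values within the limit, and *Plagl1* (-0.31), *Grb10* (-0.12) and *Igf2r* below, so the median of the list was -0.22. In the other 6 tissues 0 of 40 values of this list at 1 FPKM or more lay past the limit in either direction. Over all 7 tissues 3.49% of the values of all genes did, so nothing is read from that 0. In heart, the adult tissue with most *H19* and most *Igf2*, *H19* was at 61.7 and 58.1 FPKM (-0.09) and *Igf2* at 23.3 and 30.2 (0.37). The 3 mRNA binding proteins that attach to *Igf2* transcripts, *Igf2bp1* (0.42), *Igf2bp2* (0.07) and *Igf2bp3* (0.08), did not lie past the limit in MEFs. Summed fibroblast markers were at 3608 and 3273 FPKM in wild-type and knockout MEFs, smooth muscle markers at 8772 and 7919, and the 4 macrophage markers measured at 76.9 and 111. Past the limit lay 1 fibroblast and 1 smooth muscle marker, both lower, and 1 macrophage marker, which was higher. The part of these markers in the differences was not tested.

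In liver *Igfbp1* lay past the limit higher and *Igfbp5* lower, while the other 5 binding proteins and *Igf1* were within it. *Igfbp1* was at 28.8 FPKM in the wild type and 75.8 in the knockout, 2.63 times as much and 1.39 on the log2 scale, which placed it at rank 44 from the highest among 11711 genes. *Igf1* was at 724 and 714 FPKM (-0.02), and the acid-labile subunit gene *Igfals* was at 78.4 and 64.2 (-0.29). *Igfbp1* made up 1.60% of the binding protein mRNA in wild-type and 3.55% in knockout liver. *Igfbp5* was lower, at 4.06 and 2.15 FPKM (-0.88), the largest negative difference among the 10 genes at this level in any tissue. *Igfbp3* was at 11.1 and 15.4 FPKM (0.47), *Igfbp2* at 543 and 700 (0.37), *Igfbp7* at 78.4 and 95.0 (0.28), *Igfbp4* at 1138.5 and 1246 (0.13) and *Igfbp6* at 2.33 and 1.99 (-0.22). Rescaling each genotype to a sum of 1000000 moved the median of all genes in liver from -0.02 to 0.14, and *Igfbp3* then lay past the limit at 0.63, with *Igfbp1* at 1.55, *Igfbp5* at -0.73 and *Igf1* at 0.14.

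Some genes of the fasting and glucocorticoid response differed in liver as well. Their list was chosen because these signals are known regulators of *Igfbp1*. The choice was made with earlier results of these data known, so the counts below are a description only. Of 12 genes at 1 FPKM or more, 4 lay past 1.5 times higher and 1 lower, beside 2.55% and 2.25% of all genes. Their median was 0.48, beside -0.02 for all genes. The higher ones were *Zbtb16* (1.61 and 5.71 FPKM, 1.76), *Tsc22d3* (80.4 and 183 FPKM, 1.18), the glucocorticoid receptor co-chaperone gene *Fkbp5* (12.3 and 26.2 FPKM, 1.09) and *Tat*, which encodes tyrosine aminotransferase (1289 and 2301 FPKM, 0.84). The lower one was *G6pc*, which encodes the last enzyme of glucose release (425 and 261 FPKM, -0.70), while *Pck1*, which encodes another enzyme of the same pathway, was at 1672 and 2328 FPKM (0.48). Over the whole list, 11 of the 12 genes were above their wild-type values in liver, most of them within the limit, and 1, *G6pc*, was below. The smallest of these differences were those of *Pdk4* (0.02) and *Cpt1a* (0.20). Outside liver, where *Igfbp1* was under 1 FPKM, members of this list also lay past the limit higher, except in MEFs. The counts were 4 of 10 in heart, beside 0.874% of all genes, 4 of 9 in prostate (2.4%) and 4 of 10 in eyes (2.64%). Those of spleen were 2 of 7 (4.91%), of testes 1 of 7 (1.17%) and of MEFs 0 of 7 (0.975%). Past the limit lower lay 2 in heart, beside 1.44% of all genes. *Fkbp5* was past the limit in prostate (0.83), spleen (1.04) and heart (1.44), and lay within it in testes (0.17), eyes (0.35) and MEFs (0.28). Growth hormone signalling genes in liver included *Ghr*, the receptor, at 661 and 569 FPKM (-0.22) and the feedback inhibitor *Socs2* at 3.07 and 5.47 FPKM (0.81), the latter past the limit. Summed hepatocyte markers, which include *Tat*, the only 1 of them past the limit, were at 32172 and 32528 FPKM. The 4 macrophage markers measured summed to 108 and 176 FPKM, with 1 of 4 past the limit. The part of these cells, of fasting and of glucocorticoids in the differences of *Igfbp1* and the other genes was not tested.

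**Figure D4:**
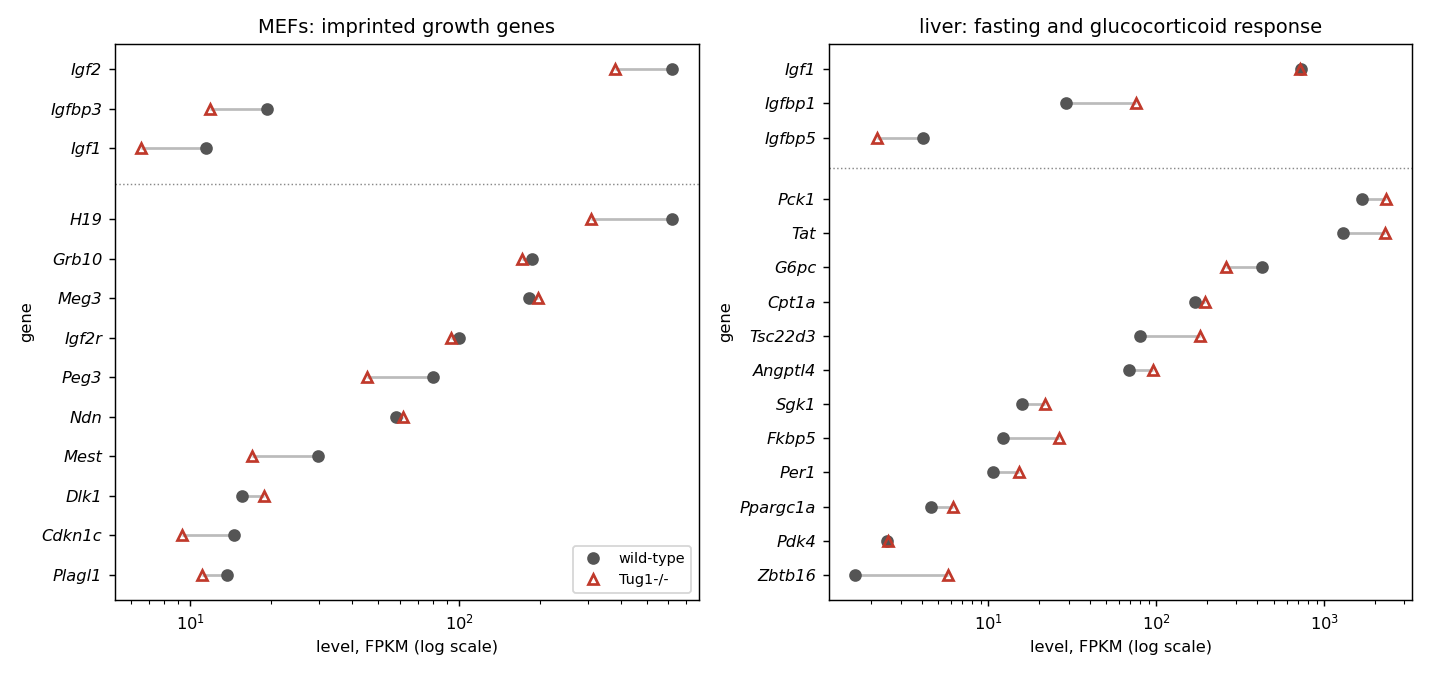
Levels (horizontal axis, FPKM, log scale) in wild-type (filled circles) and *Tug1*-/- (open triangles) of imprinted growth genes in MEFs (left) and of fasting and glucocorticoid response genes in liver (right), with the IGF family genes past 1.5 times, and *Igf1*, above the dotted line. In MEFs *H19*, *Peg3*, *Mest* and *Cdkn1c* sit to the left of their wild-type values together with *Igf2*; in liver *Igf1* is level while *Igfbp1*, *Tsc22d3* and *Zbtb16* sit to the right.

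In spleen 8 of the 9 measurable members were below their wild-type values, and the 3 past the limit were all binding proteins. *Igfbp5* was at 13.9 and 8.55 FPKM (-0.69), *Igfbp2* at 3.80 and 2.35 (-0.67) and *Igfbp6* at 10.4 and 6.53 (-0.66). *Igf2* followed at 3.54 and 2.34 FPKM (-0.57), then *Igfbp3* at 56.6 and 43.2 (-0.39), *Igfbp7* at 311 and 255 (-0.29) and *Igfbp4* at 74.1 and 64.5 (-0.20). *Igf1*, at 38.2 and 36.3 FPKM (-0.07), and *Igf1r*, at 2.13 and 2.24 (0.07), were nearly level. Markers of other cell types also differed in spleen. The 5 pancreatic acinar markers summed to 3.64 FPKM in the wild type and 2151 in the knockout, with 5 of 5 past the limit, and the 4 erythroid markers measured summed to 3091 and 6025, with 4 of 4 past it. Markers of the cells that commonly make binding proteins were below their wild-type sums with 0 past the limit, at 116 and 101 FPKM for fibroblasts, 74.4 and 63.4 for endothelium and 120 and 100 for smooth muscle and pericytes, and B and T cell markers were at 1443 and 1174. The part of these markers in the differences of the binding proteins was not tested, and the spleen samples could not be examined one by one.

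In testes the difference lay on *Igfbp3*, which was at 1.29 FPKM in the wild type and 2.86 in the knockout, 2.14 times as much and 1.09 on the log2 scale. It ranked 39 from the highest among 15143 genes, from the lowest wild-type level of *Igfbp3* in any tissue. No other member was past the limit, with *Igf1r* (2.78 and 3.27 FPKM, 0.23) and *Igf2* (4.47 and 5.24 FPKM, 0.22) next above and *Igf1* (3.94 and 3.34 FPKM, -0.23), *Igfbp6* (15.0 and 12.9 FPKM, -0.22) and *Igfbp4* (6.89 and 6.01 FPKM, -0.20) below. *Igfbp3* made up 2.06% of the binding protein mRNA in wild-type and 4.50% in knockout testes. *Htra1*, which encodes a serine protease with an IGFBP-type domain, was also past the limit there, at 4.84 and 8.24 FPKM (0.76). Markers of germ cells summed to 31242 and 26749 FPKM, those of Leydig and Sertoli cells to 1352 and 1874 and those of fibroblasts to 31.6 and 38.6; their part in the *Igfbp3* difference was not tested.

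The neighbours on chromosome 11 could be compared in liver only, where *Igfbp1* (1.39) and *Igfbp3* (0.47) were both above their wild-type values. *Igfbp3* lay past 1.5 times in testes, where it was higher, and in MEFs, where it was lower. In the other 5 tissues it was within the limit, with differences of 0.47 in liver, 0.46 in eyes (6.77 and 9.37 FPKM), 0.02 in prostate, -0.05 in heart and -0.39 in spleen. The table held 5 other genes with a start within 0.5 Mb of that of *Igfbp1* or *Igfbp3*, 2 of which reached 1 FPKM in any tissue, and 0 of their 5 values lay past 1.5 times. The neighbours on chromosome 1 were both lower in spleen, but in liver *Igfbp2* differed by 0.37 and *Igfbp5* by -0.88, and in eyes *Igfbp2* by -0.36 and *Igfbp5* by 0.29.

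In prostate, eyes and heart the family stayed within 1.5 times. Prostate had 7 of 9 members above their wild-type values, led by *Igfbp4* at 12.7 and 17.0 FPKM (0.42). Eyes had 6 of 9 above, led by *Igfbp3*, with *Igfbp2* the lowest at 105 and 81.8 FPKM (-0.36). Heart had 6 of 8 below, led by *Igfbp6* at 42.1 and 34.8 FPKM (-0.27), while *Igf2* was the highest (0.37). In knockout eyes *Igfbp5* reached 150 FPKM against 145 in knockout MEFs, the reverse of the wild-type order. *Igfbp6* was highest in heart in the wild type (42.1 FPKM, with eyes at 39.9) and in eyes in the knockout (43.2). Whether these orders differ by genotype cannot be told from pooled values. Adipocyte markers summed to 66.3 and 253 FPKM in prostate and to 108 and 395 in eyes, and skeletal muscle markers to 1666 and 3042 in eyes, with 5 of 5 past the limit, and B and T cell markers to 35.4 and 19.4 in heart; their part was not tested.

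For the rest of the pathway, counts were taken over the 7 tissues together as gene and tissue combinations at 1 FPKM or more. Of 151 such values, 4 lay past the limit in either direction, or 2.65%, beside 3.49% of the 90218 values of all genes. Insulins, the insulin receptors and *Igf2r* had 0 of 15, the intracellular relay from *Irs1* to *Akt1*, *Foxo1* and *Mtor* had 0 of 74, and the *Igf2* mRNA binding proteins 0 of 7. Carriers, proteases and their inhibitors had 2 higher and 0 lower of 20, *Htra1* in testes and the protease inhibitor *Stc1* in heart (1.71 and 2.79 FPKM, 0.68). The growth hormone arm had 1 higher and 1 lower of 35, *Socs2* in liver and *Gh* in spleen, whose level was at the limit of what was counted (1.26 and 0.761 FPKM, -0.66).

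Genes outside the family whose proteins carry the same IGFBP-type domain at the N-terminus, the CCN matrix proteins among them, had 6 values past the limit higher and 7 lower of 43, or 30.2%, beside the same 3.49% of all genes. These values are 10 genes taken in up to 7 tissues, with *Ctgf* and *Cyr61* past the limit in several, so they are not independent. The list was chosen with earlier results of these data known, so nothing is read from the share. *Htra1* stands in this list as well as among the proteases, and its value in testes is counted in both. *Ctgf* was higher in liver (5.92 and 16.4 FPKM, 1.45), prostate (7.27 and 15.1 FPKM, 1.04) and heart (47.9 and 79.6 FPKM, 0.73). Its relative *Cyr61* was lower in spleen (14.6 and 6.74 FPKM, -1.11), liver (14.9 and 7.12 FPKM, -1.05) and eyes (14.5 and 9.48 FPKM, -0.61). In liver the endothelial proteoglycan gene *Esm1* was at 1.39 and 4.58 FPKM (1.65), but in heart it was lower (1.46 and 0.925 FPKM, -0.61). *Nov* was lower in heart (-0.61) and MEFs (-0.61), *Wisp2* was lower in MEFs (-0.91) and *Htra3* was higher in prostate (0.59). *Ctgf* and *Cyr61* thus lay on opposite sides of their wild-type levels in liver, in the same libraries in which *Igfbp1* was higher and *Igfbp5* lower.

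Across the 14 pooled values (7 tissues in 2 genotypes), the levels of the members were compared with those of 19942 genes by Pearson's r of log2(FPKM + 0.1). The genes most like *Igf2* were *Loxl1* (0.991), *Ltbp1* (0.986) and *Grb10* (0.982), and those most like *Igf1* were *Apoc2* (0.983), *Abhd15* (0.980) and *Gm10392* (0.979). *Igfbp1* was matched at above 0.95 by 298 genes, led by *Pla2g12b* (0.995), *Dmgdh* (0.994) and *Baat* (0.994), whereas *Igfbp2*, *Igfbp3* and *Igfbp6* had 4 such genes each. *Igfbp3* was nearest to *Wtap* (0.977), *Igfbp5* to *Spry2* (0.982), *Igfbp7* to *Msn* (0.989) and *Igf1r* to *2610203C20Rik* (0.991). Within the family, over the 7 wild-type values, the highest r were those of *Igf1* with *Igfbp4* (0.89) and with *Igfbp1* (0.88) and of *Igf2* with *Igf1r* (0.86), and the lowest was that of *Igf1* with *Igfbp6* (-0.87). All points come from the same libraries, the 2 genotypes of a tissue lie close together, and 1 tissue can set such a value, so these are descriptions of where the genes are expressed.

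Counting may mix some of the genes with others. In GENCODE vM21, *Igf2* overlaps *Gm49394* and *Mir483* on its own strand and *Igf2os* on the other, *Igf1* overlaps *Igf1os*, and *Igfbp7* overlaps *Polr2b* and *Gm34648*. The library kit does not keep the strand, so reads from these partners cannot be told apart.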

How the data were processed

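RNA selected for poly-A tails was sequenced from 7 tissues of wild-type and *Tug1*-/- mice with the TruSeq RNA Sample Preparation Kit v2. The submitters' processing notes name CASAVA 1.8.2, TopHat2, Cuffdiff and the build mm10, whereas the paper describes another route for its own calls. The authors deposited 1 table with 1 pooled FPKM value per gene, genotype and tissue; FPKM is the unit of the Cuffdiff layout, since the header gives none. The table also holds the authors' own comparisons (log2 fold change, test statistic, p-value, q-value and a significance flag), which were not used. Its 2 values for brain matched no sample and were not analysed here.

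The members and lists were chosen with earlier results of these data known. Samples were grouped by genotype and tissue from the labels. The difference was log2((KO + 0.1)/(WT + 0.1)), counted past 1.5 times with a mean of at least 1 FPKM. Pooled values allow no test, no SD and no interval, and the depth of the samples is unknown. Named genes were the 10 members in every tissue, list genes past the limit (at most 4 a tissue by size), the 3 genes most like a member, and *Tug1*; a few list genes within the limit, such as *Igfals*, *Ghr*, *Pck1* and *Pappa*, were named after their values were seen. *Igf2r*, *Grb10* and *Htra1* stand in more than 1 list, and *Tat* stands both in a list and among the hepatocyte markers. Of the list genes, *Zac1*, *Adgre1* and *Hbb-b1* were not found by that name. Genes were matched to GENCODE vM21 by identifier, and promoter windows came from RefSeq (GRCm38.p6) by symbol. Alternatives were pseudocounts of 1 and 0.01, rescaling to a sum of 1000000, centring on the median gene, a limit of 2 times, no filter and a mean of at least 5 FPKM. The count was tested on simulated data. That run, in which the differences were planted, checks the counting code only. How often the count errs under the spread between mice was not tested. The tools were matplotlib 3.10.9, pandas 2.3.3, numpy 2.4.6 and Python 3.11.15.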

Additional observations from a re-analysis of the deposited data

How the results depend on the processing

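Over 240 values of the members under other pseudocounts and scalings, 4 changed side of the limit and 2 changed sign, both within it and both after rescaling to a sum of 1000000: *Igf1* in liver (-0.02 to 0.14) and *Igfbp7* in eyes (0.02 to -0.01). *Igfbp2* in spleen came within it with a pseudocount of 1 (-0.52), *Igf2* in spleen passed it with a pseudocount of 0.01 (-0.59) and after rescaling to a sum of 1000000 (-0.62), and *Igfbp3* in liver passed it after rescaling (0.63), which also took the median of the members in liver from 0.20 to 0.36. With a limit of 2 times, 0 members were lower (7 at 1.5 times), 2 were still higher, and 16 list values were past it (42 at 1.5 times). Of all genes, between 0.221% (heart) and 1.67% (spleen) were then higher. Between 0.161% (eyes) and 0.581% (liver) were lower. With a mean of at least 5 FPKM, 1 member was higher (2 at 1 FPKM) and 5 lower. Among all genes at that level, 156 of 8413 were higher in liver, 33 of 8927 lower in spleen and 92 of 8298 lower in MEFs. The order of the 7 tissues kept between 2 (*Igfbp6*) and 7 (*Igfbp1* and *Igfbp5*) places after rescaling, and the tissue with most *Igfbp6* was then eyes, not heart. No paired analysis was possible because the values were pooled over replicates, and for the same reason leaving out a replicate was not run; a difference carried by 1 sample cannot be told from one shared by all. Depth is unknown, so no lower limit can be given for the values listed at 0.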
